A study of Rattus norvegicus with 21 samples.

Results

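The 6 connexin genes described here were Gja1, Gja4, Gja5, Gjb2, Gjb5 and Gjc1, taken by their gene symbols from a table of 9998 rat genes in which 15 connexin genes were present. They were measured by RNA sequencing in 21 libraries of mesenchymal stem cells from rat bone marrow, stromal progenitors that can form bone, fat and cartilage cells. The 7 groups held 3 libraries each. All were wild type by their labels. Control had no treatment named, and the other groups had the treatment SFSN, for self-feedback synaptic networks, with a suffix for the cell type the submitters attach to each: EC for endothelial cells, Ot for osteoblasts, TC for tendon cells, FB for fibroblasts, Neu for neuron-like cells and Adipo for adipocytes. The labels gave no age, sex, time point or dose, did not say what the SFSN treatment consists of, and did not say how replicates were made. The p-values below therefore measure only the spread between these libraries, which may be technical.

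Connexins are membrane proteins that assemble into a ring called a hemichannel. Hemichannels of adjacent cells dock to form a gap junction, a pore that passes ions, calcium signals and small metabolites directly from cell to cell, and connexins of different genes can mix within a channel and give it other conductance and gating. In marrow stroma and bone, connexin 43 (Gja1) is the main gap junction protein and is known for coupling osteoblasts, osteocytes and stromal cells. Connexin 45 (Gjc1) is found beside it in osteoblast-lineage and smooth muscle cells. Connexin 37 (Gja4) and connexin 40 (Gja5) are best known from arterial endothelium, connexin 26 (Gjb2) from epithelia, liver and the inner ear, and the product of Gjb5 from skin and placenta.

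The libraries held 8113595 to 8934238 counts over the genes in the table, which runs alphabetically up to Map2k1 and is therefore part of each library. A floor of 3 counts corresponded to 0.336 to 0.370 CPM on the raw totals of the table, and it covers counting error only. CPM is a count scaled to a fixed library size. The CPM below are also TMM-scaled between libraries, and 3 counts in Control 3 were then 0.378 CPM. The libraries SFSN-EC 1 and SFSN-Neu 2 stood apart from the others of their groups. Their counts differed from those of their group by a chi-square of 21.6 to 42.6 per degree of freedom, against 2.17 and 2.83 between the remaining pair of each group. Markers of mesenchymal stem cells were present throughout, with a summed level of 12410 to 13150 CPM in Control and 7064 to 9302 CPM across SFSN libraries, and Cd44, Itgb1 and Cxcl12 fell in all 6 SFSN groups (Cd44 and Itgb1 in 5 with log2(TPM + 1)). Of the other 4 markers on that list, Kitlg rose in 5 groups and Eng in 4, Alcam fell in 2 and Lepr passed in none. Summed macrophage and leukocyte markers ranged from 829.5 to 893.3 CPM in Control and from 906.6 to 1653 CPM across SFSN libraries. Fewer cells of a type and less RNA per cell cannot be told apart in such bulk samples.

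Against Control, Gja4, Gja5 and Gjb2 fell in every SFSN group, Gja1 fell by a small amount in 5 of them, and Gjc1 rose by a small amount in 3 of them. Of the 6 genes, 5 passed the filter on low counts (6659 genes were tested) and Gjb5 did not. In edgeR's quasi-likelihood test with Benjamini-Hochberg adjustment over all genes tested, 26 of the 30 comparisons of a connexin gene with Control had an adjusted p under 0.05, 23 of them lower and 3 higher. All 5 tested connexins passed in SFSN-EC, where 33.3% of all genes did, in SFSN-Ot, where 39.5% did, and in SFSN-TC, where 38.1% did. In SFSN-FB 4 of the 5 passed, against 42.7% of all genes, in SFSN-Neu 4 passed, against 38.1%, and in SFSN-Adipo 3 passed, against 36.5%. The shares of all genes that were lower were 15.6%, 19.3%, 18.8%, 21.2%, 17.9% and 16.8% in SFSN-EC, Ot, TC, FB, Neu and Adipo, and the shares that were higher were 17.7%, 20.2%, 19.3%, 21.5%, 20.1% and 19.7%. The 6 comparisons share the same 3 Control libraries, so their likeness to each other is not independent evidence. Between SFSN groups, 17 of 75 comparisons of a connexin gene passed, beside 1.67% to 28% of all genes depending on the pair of groups.

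**Figure D1:**
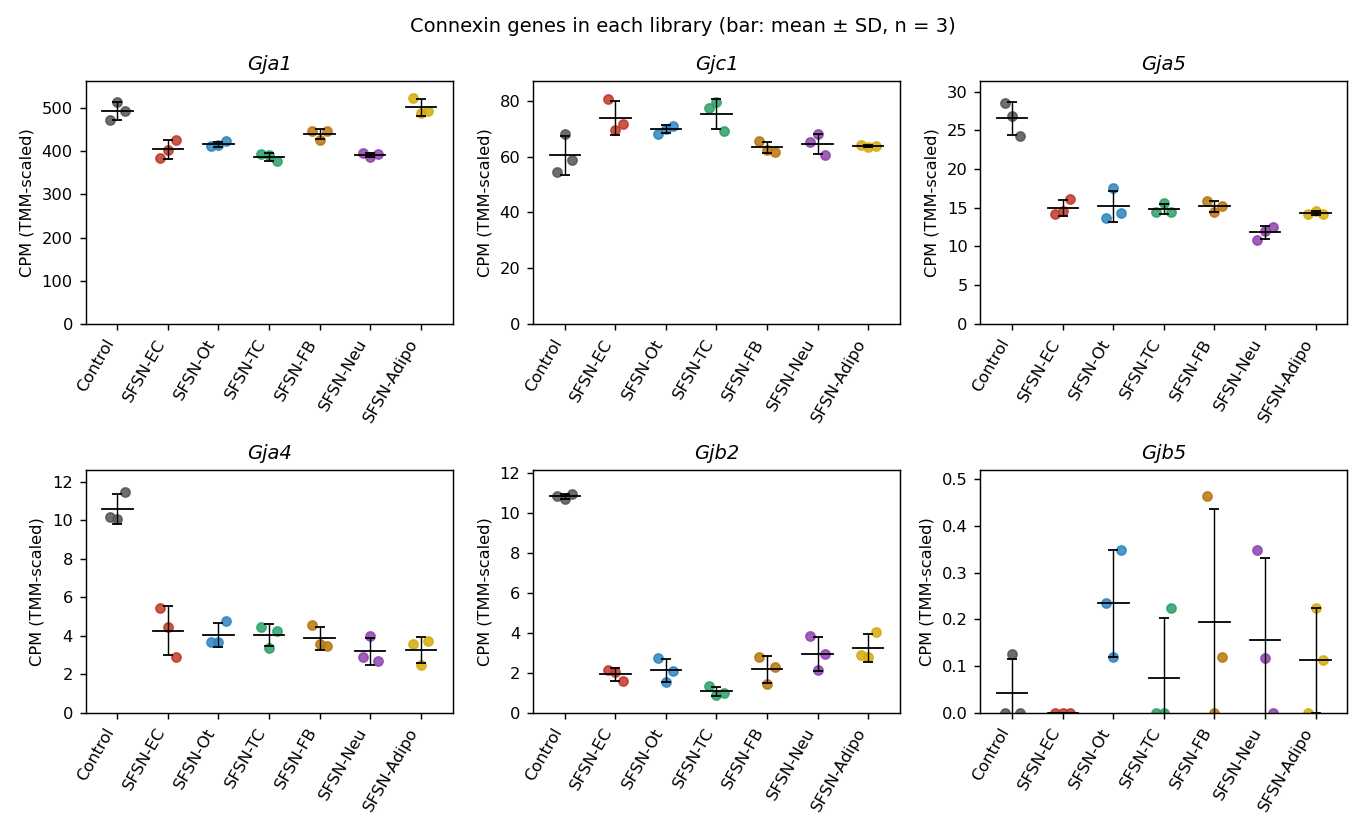
Each panel plots 1 connexin gene as TMM-scaled CPM (linear axis from 0) in the 21 libraries, grouped by treatment, with points for libraries and bars for the mean ± SD (n = 3). Every SFSN library lies below every Control library for Gja5, Gja4 and Gjb2, whereas Gjb5 stays at or under 0.465 CPM throughout.

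**Figure D2:**
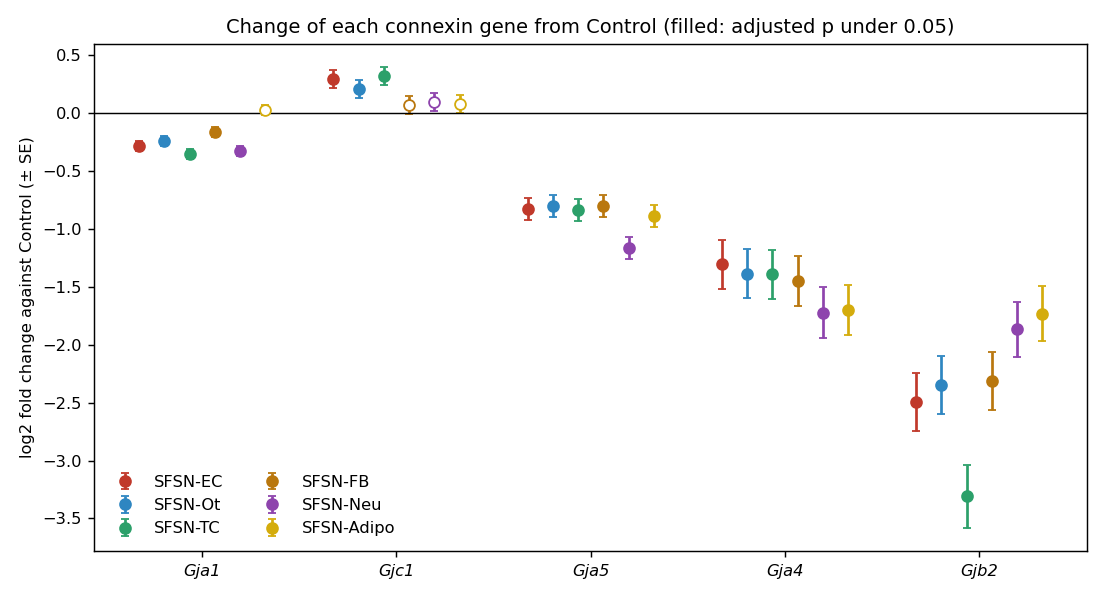
The vertical axis gives the log2 fold change of each SFSN group against Control from the edgeR model, with bars of ± 1 SE, for the 5 connexin genes that were tested. Filled points have an adjusted p under 0.05. Changes run from -3.31 for Gjb2 in SFSN-TC to 0.32 for Gjc1 in SFSN-TC.

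On the TPM scale, which corrects for transcript length and so allows levels to be compared between genes, Gja1 was by far the most abundant connexin mRNA. It made up 71.9% to 73.3% of the connexin TPM in Control and 67.8% to 77.8% of it across SFSN libraries. Gjc1 came next, with 15.1% to 17.6% in Control and 17.4% to 26.1% across SFSN libraries, a range that overlaps the Control range by its lowest SFSN-Adipo library. Gja5 supplied 3.68% to 4.49% in Control and 2.02% to 3.07% in SFSN libraries. Gja4 supplied 3.13% to 3.78% and 0.858% to 2.13%, and Gjb2 2.06% to 2.23% and 0.214% to 0.962%. Together these 3 less abundant genes summed to 15.6 to 17.1 TPM in Control and to 5.90 to 8.28 TPM in SFSN libraries, with no overlap. The connexin total was 167.4 ± 5.1 TPM in Control (SD, n = 3), 186.9 ± 1.8 in SFSN-Adipo and 144.6 ± 10.4 in SFSN-Neu, with the other 4 groups at means of 155.9 to 162.5 TPM. The 6 genes held 99.1% of all connexin counts in the table.

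Gja1 encodes connexin 43. Its level was 473.0, 512.7 and 493.0 CPM in the Control libraries and 523.1, 488.1 and 493.1 CPM in SFSN-Adipo, so these groups overlapped. It was 446.3, 426.1 and 447.2 CPM in SFSN-FB, 412.0, 413.2 and 422.9 in SFSN-Ot, and 384.0, 401.9 and 426.9 in SFSN-EC. In SFSN-Neu it was 395.0, 387.1 and 392.8 CPM and in SFSN-TC 393.5, 390.1 and 376.0. Every library of these 5 groups lay below every Control library. The share of all genes tested that lay wholly below Control was 19.2% for SFSN-EC, 25.5% for SFSN-Ot, 28.7% for SFSN-TC, 26.4% for SFSN-FB, 23.5% for SFSN-Neu and 25.2% for SFSN-Adipo. The log2 fold changes against Control were -0.35 ± 0.04 (SE) in SFSN-TC, -0.33 in SFSN-Neu, -0.29 in SFSN-EC, -0.24 in SFSN-Ot and -0.16 in SFSN-FB, all with an adjusted p of 0.00511 or less (edgeR). In SFSN-Adipo the change was 0.02 ± 0.04 (adjusted p = 0.695, edgeR), with an interval of -0.07 to 0.12. Changes of this size depended on how libraries were scaled. Total-count scaling moved the median change of all genes by 0.161 to 0.225 on the log2 scale, and under it Gja1 was called lower only in SFSN-TC and SFSN-Neu, its change in SFSN-FB turned to 0.02 (adjusted p = 0.768), and SFSN-Adipo was called higher (0.23, adjusted p = 0.000168). On the TPM scale, which moved that median by 0.104 to 0.238, Gja1 passed in SFSN-Adipo (0.23 to 0.24, higher) and did not in SFSN-EC, SFSN-Ot, SFSN-TC or SFSN-FB, by limma. Relative to the median gene Gja1 was low in 5 groups, and its direction in SFSN-FB depended on the scaling. Without Control 2 the call in SFSN-FB was also lost (-0.12, adjusted p = 0.0574, edgeR).

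The levels of Gja1 among the SFSN groups ran from SFSN-Adipo (501.4 CPM) through SFSN-FB (439.9), SFSN-Ot (416.1), SFSN-EC (404.3) and SFSN-Neu (391.6) to SFSN-TC (386.5). SFSN-Adipo was above each of the 5 others, by 0.19 to 0.38 on the log2 scale (edgeR, adjusted p of 1.45e-05 to 0.0036). Between groups next to each other from SFSN-FB to SFSN-TC, no step passed, with adjusted p of 0.417 to 0.807 (edgeR). SFSN-FB was above SFSN-TC and SFSN-Neu by 0.19 and 0.17. The shares of all genes that differed in these comparisons were 3.81% for SFSN-EC against SFSN-Adipo, 19.1% for SFSN-Ot, 5.75% for SFSN-TC, 23.4% for SFSN-FB and 5.69% for SFSN-Neu against the same group, 28% for SFSN-TC against SFSN-FB and 16.7% for SFSN-FB against SFSN-Neu. The call of SFSN-FB over SFSN-Neu was lost without SFSN-FB 1 (0.14, adjusted p = 0.0672, edgeR), and it and that of SFSN-FB over SFSN-TC were lost on the TPM scale.

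Gjc1, connexin 45, forms channels of low conductance and high voltage sensitivity. It stood at 54.6, 68.1 and 58.7 CPM in Control, the widest relative spread of this gene in any group. It was at 77.4, 79.6 and 69.3 CPM in SFSN-TC, 80.8, 69.5 and 71.6 in SFSN-EC, and 68.3, 70.0 and 71.1 in SFSN-Ot. It was at 65.3, 68.0 and 60.8 CPM in SFSN-Neu, 64.4, 63.4 and 63.7 in SFSN-Adipo, and 65.6, 62.6 and 61.8 in SFSN-FB. The first 3 groups lay wholly above Control, as for 28.1% of all genes in SFSN-TC, 20.6% in SFSN-EC and 25.5% in SFSN-Ot, and the last 3 overlapped it. Gjc1 rose by 0.32 ± 0.08 on the log2 scale in SFSN-TC (adjusted p = 0.00345, edgeR), by 0.29 ± 0.08 in SFSN-EC (adjusted p = 0.00768) and by 0.21 ± 0.08 in SFSN-Ot (adjusted p = 0.0437). In the other groups its changes were 0.07 to 0.10, with adjusted p of 0.362 to 0.532 (edgeR) and intervals whose upper bounds were 0.23 to 0.26. Total-count scaling and TPM placed these 3 groups past the threshold as well, at 0.21 to 0.31. The call in SFSN-Ot was lost with RLE scaling (adjusted p = 0.0539, edgeR) and without Control 1 (0.13, adjusted p = 0.222), Control 3 (0.19, adjusted p = 0.135) or any single SFSN-Ot library (adjusted p of 0.0653 to 0.113). Without Control 2 the call in SFSN-Neu was gained (0.22, adjusted p = 0.0414). Between SFSN groups Gjc1 was higher in SFSN-TC than in SFSN-FB (0.25, adjusted p = 0.0205, edgeR) and in SFSN-EC than in SFSN-FB (0.22, adjusted p = 0.0479), where 21.6% of all genes differed. The second of these was not past the threshold without SFSN-EC 1 (0.16, adjusted p = 0.178), SFSN-EC 3 or any SFSN-FB library, and the first without SFSN-TC 1 or 2 or SFSN-FB 2 or 3. Without the libraries that stood apart, the change of Gjc1 in SFSN-EC against Control was 0.22 (adjusted p = 0.0321, edgeR). It did not pass when only the 6 libraries of SFSN-EC and Control were fitted (adjusted p = 0.117).

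The balance between the 2 main connexins needs no scaling between libraries. Per 100 TPM of Gja1, Gjc1 stood at 20.7, 24.4 and 21.6 TPM in Control and at 22.4, 23.9 and 23.9 in SFSN-Adipo, which overlap. It stood at 26.5, 26.7 and 25.7 in SFSN-FB, 30.3, 31.8 and 27.99 in SFSN-Neu, and 30.3, 31.3 and 30.3 in SFSN-Ot. It reached 38.5, 31.6 and 30.8 in SFSN-EC and 35.5, 37.1 and 34.0 in SFSN-TC. Every library of these 5 groups lay above every Control library, and SFSN-FB lay below every library of the other 4. An exact permutation test over 3 against 3 libraries cannot go below p = 0.1, and none is given here.

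**Figure D3:**
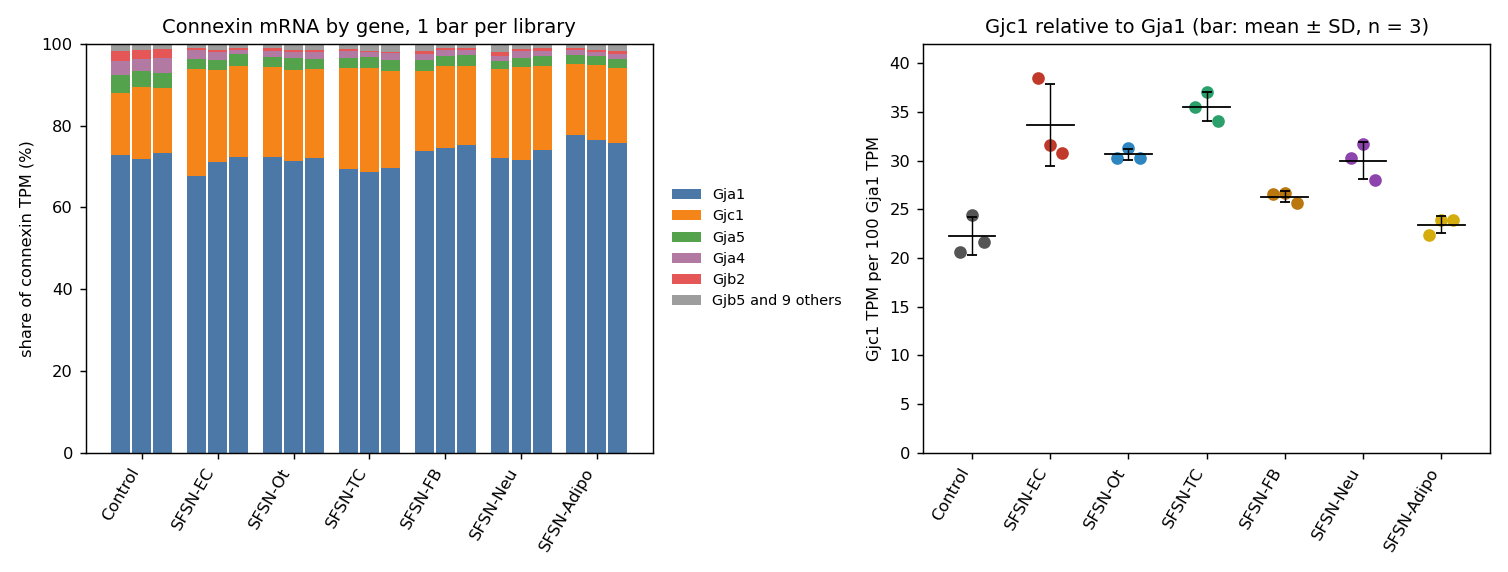
The left panel stacks the share (%) of the connexin TPM held by each gene, 1 bar per library, and the right panel plots TPM of Gjc1 per 100 TPM of Gja1, with points for libraries and bars for the mean ± SD (n = 3). Gja1 holds 67.8% to 77.8% of every bar, and the ratio on the right is 22.2 ± 2.0 in Control and 35.6 ± 1.5 in SFSN-TC.

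Gjb2, connexin 26, showed the widest change of the 6 genes. The Control libraries held 10.83, 10.70 and 10.96 CPM, from 85 to 87 counts each. The SFSN libraries held 0.90 to 4.05 CPM, with a median of 2.13, from 8 to 36 counts each. By group these were 2.14, 2.01 and 1.57 CPM in SFSN-EC, 2.71, 1.55 and 2.09 in SFSN-Ot, 1.33, 0.90 and 1.00 in SFSN-TC, 2.79, 1.43 and 2.28 in SFSN-FB, 3.83, 2.12 and 2.91 in SFSN-Neu, and 2.88, 2.81 and 4.05 in SFSN-Adipo. No SFSN library reached the lowest Control library. Gjb2 was 9.9-fold lower in SFSN-TC (log2 fold change -3.31 ± 0.27), 5.64-fold lower in SFSN-EC (-2.5 ± 0.25), 5.09-fold lower in SFSN-Ot (-2.35 ± 0.25) and 4.97-fold lower in SFSN-FB (-2.31 ± 0.25). It was 3.65-fold lower in SFSN-Neu (-1.87 ± 0.24) and 3.33-fold lower in SFSN-Adipo (-1.73 ± 0.24). The adjusted p was 1.33e-05 or less in all 6 (edgeR), and only 0.285% to 0.841% of all genes tested had a lower fold change in the same comparison.

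SFSN-TC held the least Gjb2. Its log2 fold change was -1.58 against SFSN-Adipo (adjusted p = 0.00187, edgeR) and -1.44 against SFSN-Neu (adjusted p = 0.00216), a comparison in which 15.6% of all genes differed. It was also below SFSN-FB (-1.0, adjusted p = 0.0193), and SFSN-Ot was above it by 0.96 (adjusted p = 0.0324) in a comparison where 20.3% of all genes differed. The call against SFSN-Ot was lost without SFSN-Ot 1 (0.75, adjusted p = 0.164), SFSN-Ot 3, SFSN-TC 2 or SFSN-TC 3, and the call against SFSN-FB without SFSN-FB 1 (-0.77, adjusted p = 0.122), SFSN-FB 3, SFSN-TC 2 or SFSN-TC 3. In the order Adipo, Neu, FB, Ot, EC, TC no step between neighbouring SFSN groups passed, with adjusted p of 0.313 to 0.986 (edgeR).

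Gja4, connexin 37, stood at 10.2, 10.1 and 11.47 CPM in Control, from 80 to 91 counts per library. In SFSN libraries it ranged from 2.47 to 5.41 CPM with a median of 3.67, from 22 to 48 counts. The values were 5.41, 4.47 and 2.91 CPM in SFSN-EC, 3.66, 3.69 and 4.76 in SFSN-Ot, 4.44, 3.37 and 4.24 in SFSN-TC, 4.54, 3.58 and 3.47 in SFSN-FB, 2.90, 4.0 and 2.68 in SFSN-Neu, and 3.54, 2.47 and 3.71 in SFSN-Adipo. The 6 groups overlapped each other and none overlapped Control. Gja4 was 2.48-fold lower in SFSN-EC (log2 fold change -1.31 ± 0.21) and 3.30-fold lower in SFSN-Neu (-1.72 ± 0.22), with the other groups between, and the adjusted p was 9.97e-05 or less (edgeR). None of the 15 comparisons between SFSN groups passed, among them SFSN-EC against SFSN-Ot, SFSN-EC against SFSN-TC and SFSN-Ot against SFSN-FB, in which no connexin gene passed and 13.9%, 1.67% and 4.58% of all genes did. Their changes ranged in size up to 0.42, and the interval for SFSN-EC against SFSN-Neu ran from -0.07 to 0.91 on the log2 scale, and differences of that size between SFSN groups were not detectable at this depth.

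Gja5, connexin 40, stood at 28.6, 26.8 and 24.3 CPM in Control. In SFSN libraries it ranged from 10.9 to 17.5 CPM with a median of 14.4, again with no overlap. The values were 14.2, 14.5 and 16.1 CPM in SFSN-EC, 13.7, 17.5 and 14.4 in SFSN-Ot, 14.4, 15.6 and 14.5 in SFSN-TC, 15.9, 14.4 and 15.2 in SFSN-FB, 10.9, 12.0 and 12.6 in SFSN-Neu, and 14.2, 14.6 and 14.2 in SFSN-Adipo. Gja5 fell by 0.81 to 0.89 on the log2 scale in 5 groups, which is 1.75- to 1.85-fold, and by 1.17 ± 0.10 in SFSN-Neu, which is 2.25-fold. The adjusted p was 2.15e-06 or less in every group (edgeR). SFSN-Neu was lower than SFSN-EC, SFSN-Ot, SFSN-TC and SFSN-FB by 0.33 to 0.36 on the log2 scale, with adjusted p of 0.0158 to 0.0392 (edgeR). In the first 3 of these comparisons 8.24%, 15.5% and 15.6% of all genes differed. All 4 calls were lost when SFSN-Neu 1 was left out (adjusted p of 0.0772 to 0.163). Those against SFSN-EC (0.38, adjusted p = 0.0715) and SFSN-TC (0.34, adjusted p = 0.06) were also lost without the libraries that stood apart. Other single libraries whose removal ended a call were SFSN-FB 1, SFSN-Ot 2, SFSN-EC 2 and 3, SFSN-Neu 2 and 3, and each SFSN-TC library. The step from SFSN-Adipo to SFSN-Neu did not pass (0.28, adjusted p = 0.127).

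Gja4, Gja5 and Gjb2 were the 3 of 5 tested connexins that fell in all 6 SFSN groups, as 8.97% of all genes tested did, and whose 18 SFSN libraries all lay below all 3 Control libraries, as for 11.2% of all genes. None of the 5 had all 18 SFSN libraries above Control, as 9.81% of all genes did. Their calls against Control were kept under every alternative tried, without the libraries that stood apart included. With log2(TPM + 1) their changes stayed negative and were smaller, the smallest being -0.51 for Gja5 in SFSN-TC.

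The sequences before the annotated starts of these 3 genes are shown because all 3 fell in all 6 SFSN groups against the same Control libraries. Among the SFSN groups, the lowest mean was in SFSN-TC for Gjb2 and in SFSN-Neu for Gja4 and Gja5. They come from RefSeq on the build GRCr8, whereas the counts were made on Rnor_6.0. The window of Gja4 is chr5:144920325-144920574 on the minus strand, that of Gja5 is chr2:187290977-187291226 on the plus strand, and that of Gjb2 is chr15:35381954-35382203 on the minus strand and lies inside the annotated span of the gene. Each ends at the base before the start, and capitals mark matches to the motifs searched.
Gja4: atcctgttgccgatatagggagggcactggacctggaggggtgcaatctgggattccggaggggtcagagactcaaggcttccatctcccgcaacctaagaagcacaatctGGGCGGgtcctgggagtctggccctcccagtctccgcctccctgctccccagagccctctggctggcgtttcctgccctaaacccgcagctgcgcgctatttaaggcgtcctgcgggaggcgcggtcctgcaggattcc
Gja5: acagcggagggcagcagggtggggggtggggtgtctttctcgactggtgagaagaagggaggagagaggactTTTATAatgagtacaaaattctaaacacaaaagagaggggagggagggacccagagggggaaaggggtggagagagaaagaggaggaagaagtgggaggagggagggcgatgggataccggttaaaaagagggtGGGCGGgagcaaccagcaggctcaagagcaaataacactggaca
Gjb2: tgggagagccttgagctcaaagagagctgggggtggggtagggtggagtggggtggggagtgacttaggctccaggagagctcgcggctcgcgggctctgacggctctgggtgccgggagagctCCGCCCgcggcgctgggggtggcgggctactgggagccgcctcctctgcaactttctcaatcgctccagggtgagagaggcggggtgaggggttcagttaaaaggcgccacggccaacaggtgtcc
The letters searched on both strands were TGANTCA for AP-1, GGGCGG for the GC box, TATAAA for the TATA box and CCAAT. None of these motifs contains another. Of 33469 windows of 250 bases, 6.34%, 30.5%, 12.9% and 34% held them. All 3 windows held 1 GC box, at -139 from the start in Gja4, at -44 in Gja5 and, read on the other strand as its complement, at -126 in Gjb2. The window of Gja5 also held TATAAA on the other strand, at -178. No match to AP-1 or CCAAT was in these windows. The share of G and C was 63.2%, 54.8% and 67.2%, against a median of 51.2% over all windows. For Gja1, shown for contrast, 176 bases before the start were in the table, chr20:36302314-36302489 on the plus strand, with 53.4% G and C and no match to the 4 motifs, in a shorter window than the others.
Gja1: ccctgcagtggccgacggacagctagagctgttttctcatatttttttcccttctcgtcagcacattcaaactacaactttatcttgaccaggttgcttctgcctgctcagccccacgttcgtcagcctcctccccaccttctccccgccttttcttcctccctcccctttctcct

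Gjb5 belongs to the beta connexins. It was barely detected, with 21 counts over all libraries, 0 to 4 per library, and 10 of 21 libraries at 0. The Control libraries held 0, 1 and 0 counts, SFSN-EC 0 in all 3, SFSN-Ot 2, 1 and 3, and SFSN-FB 4, 0 and 1. SFSN-TC held 0, 0 and 2 counts, SFSN-Neu 3, 1 and 0, and SFSN-Adipo 0, 2 and 1. The ratio of the summed SFSN level to Control was 3.04 with an exact interval of 0.486 to 125.8, so no difference was detectable at this depth.

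Other connexins in the table were sparse. Gja3, the lens connexin 46, held 0 to 14 counts and passed in no group. Gjc3 held 1 to 6 counts, Gja10 0 to 2, Gja6 and Gjd3 0 or 1, and Gje1 0 in all libraries. Gjb1, Gjb6, Gjd2 and Gjd4 were not analysed here.

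Of 19 genes for proteins that bind, carry or phosphorylate connexins, all were tested and 5 fell in all 6 SFSN groups, which is 26.3% beside 8.97% of all genes. None rose in all 6. Cav1, the caveolin that binds connexin 43 in membrane rafts, had the lowest mean change of the list over the 6 groups, -0.66, and fell by 0.44 to 0.86 on the log2 scale, from 2204 ± 98 CPM in Control to 1174 to 1672 CPM in SFSN libraries. Ezr, or ezrin, which links membrane proteins to actin and anchors protein kinase A near connexin 43, fell by 0.42 to 0.66, from 126.4 ± 10.6 CPM to 77.6 to 103.1 CPM. Ctnna1, the alpha-catenin of adherens junctions, fell by 0.43 to 0.52. Dbn1 (drebrin), an actin-binding partner of connexin 43, fell by 0.16 to 0.38, and Cttn (cortactin) by 0.19 to 0.32. The largest adjusted p of these 5 genes was 0.0126, for Dbn1 (edgeR). Under total-count scaling Cav1, Ezr and Ctnna1 fell in all 6 groups, Dbn1 in 2 and Cttn in 3, and 6 partners rose in all 6, so the smaller changes rest on the scaling. Counts per group, higher and lower, were 1 and 5 of 19 in SFSN-EC, 4 and 6 in SFSN-Ot, 4 and 6 in SFSN-TC, 3 and 8 in SFSN-FB, 1 and 7 in SFSN-Neu, and 2 and 7 in SFSN-Adipo. The median change of the list lay between -0.13 and 0.00, and that of all genes between 0.00 and 0.02.

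Of 14 transcription factors and signals known to act on connexin genes, 12 were tested. Gata4 held 0 to 2 counts and Dll4 0 or 1. Fos and Junb, subunits of the AP-1 factor, rose in all 6 groups, as did 8.5% of all genes. Fos rose by 1.32 to 2.95 on the log2 scale, from 69.98 ± 4.41 CPM in Control to 167.2 to 556.7 CPM, and Junb by 0.45 to 1.33. Klf2, a factor induced by flow in endothelium, fell in all 6, by 0.58 to 0.87, from 54.9 ± 0.4 CPM to 28.1 to 41.2 CPM. The largest adjusted p of these 3 genes was 0.000848 (edgeR), and all 3 held in every group under total-count scaling and on the TPM scale. Jun, another AP-1 subunit on the list, rose in 4 groups. It did not pass in SFSN-Ot (-0.22, adjusted p = 0.0724, edgeR) or SFSN-FB (0.18, adjusted p = 0.13). Counts per group, higher and lower, were 5 and 2 of 12 in SFSN-EC, 6 and 3 in SFSN-Ot, 5 and 4 in SFSN-TC, 3 and 4 in SFSN-FB, 5 and 4 in SFSN-Neu, and 4 and 5 in SFSN-Adipo, with medians of 0.00 to 0.25.

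**Figure D4:**
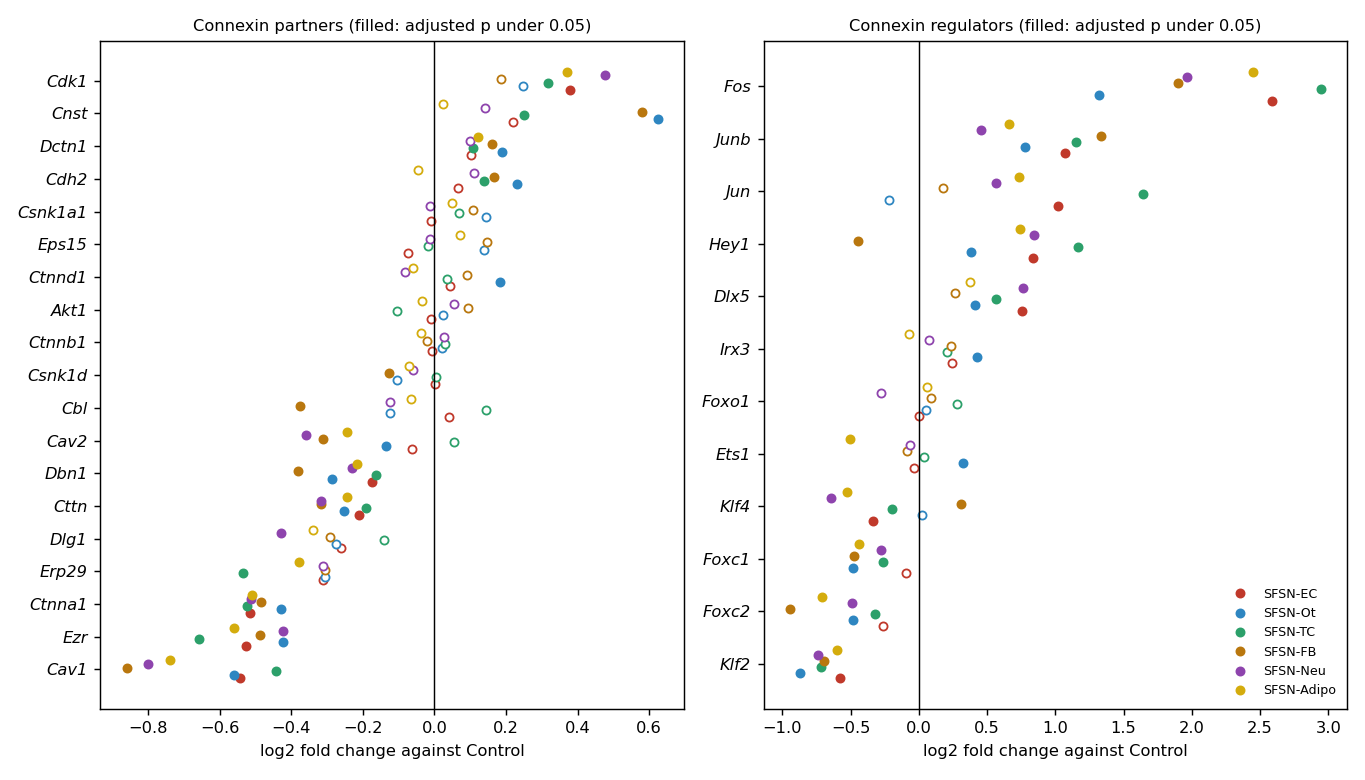
The horizontal axes give the log2 fold change against Control of the 19 connexin partners (left) and the 12 tested connexin regulators (right), 1 point per SFSN group and gene, filled where the adjusted p is under 0.05. Cav1, Ezr, Ctnna1, Dbn1 and Cttn lie left of 0 and are filled in all 6 groups, and Fos and Junb lie right of 0.

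Because Gja4 and Gja5 are known from endothelium and Gjb2 from epithelium, markers of these cell types were read beside them. Of 9 endothelial markers in the table, 5 were tested. Their summed level was 90.6 to 96.3 CPM in Control and 39.6 to 56.0 CPM in SFSN libraries, without overlap. Most of that sum came from Flt1, a VEGF receptor, which fell by 2.5 to 2.78 on the log2 scale from 34.5 ± 3.3 CPM in Control, and from Egfl7 and Erg, which fell in 6 and 5 groups (3 and 4 under total-count scaling). The other 2 tested markers passed in no group, Icam2 with changes of -0.70 to -0.21 and Esam with changes of -0.01 to 0.58, though Esam was called higher in 5 groups by limma on log2(TPM + 1). The defining endothelial markers Cdh5, Kdr, Emcn and Ecscr were near 0 in every library, at 0 to 4, 1 to 8, 0 or 1 and 1 to 7 counts. The part of Flt1, Egfl7 and Erg in the fall of Gja4 and Gja5 was not tested. Epithelial markers summed to 4.03 to 5.04 CPM in Control and 2.70 to 6.27 CPM in SFSN libraries, which overlap. Krt5, Krt14, Esrp1 and Epcam held 0 to 2 counts, and Krt8, the one gene of the list that was tested, passed in no group. Markers of mural cells and smooth muscle were mixed, with Acta2 and Cnn1 lower and Des, Kcnj8 and Abcc9 higher in all 6 groups, and Cspg4 lower in 2. Of the osteoblast list, Alpl and Ibsp were higher and Col1a1 lower in all 6, Dmp1 was higher in 5 and Dlx5 in 4, and the summed level was 75540 to 76940 CPM in Control and 55650 to 70980 CPM in SFSN libraries. Of the macrophage and leukocyte list, Adgre1 and Itgam were higher in all 6, Cd14 in 5 and Lyz2 in 3. Csf1r was higher in 5 and lower in SFSN-TC (-0.28), and Cd68 was lower in SFSN-Ot (-0.53) and SFSN-TC (-0.42). The part of these markers in the connexin changes was not tested.

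Genes with the profile most like a member were sought over the 7 group means of log2 CPM, each centred on its own mean, by the root mean square difference, among genes of at least 5 CPM. For Gja4, whose group means spanned 1.72 log2 units, these were Celf3 (0.113), Map1b (0.114) and Akap12 (0.118). For Gja5, which spanned 1.16 log2 units, they were LOC100911730 (0.0539), Afap1l2 (0.0730) and Bves (0.0813). For Gjb2, which spanned 3.23 log2 units, they were Cd55 (0.338), Eno3 (0.374) and Cyp2s1 (0.424). Gja1 and Gjc1 spanned under 1 log2 unit and had no such search.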

How the data were processed

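Total RNA of 21 rat mesenchymal stem cell libraries had been sequenced. Reads were trimmed with SOAPnuke 2.2.1, aligned with HISAT2 2.2.1 to Rnor_6.0 and Bowtie2 2.4.5 (up to 200 alignments a read), and quantified with RSEM 1.3.1 at a forward probability of 0, per the submitters' processing notes. These notes also list DESeq2 1.34.0, and no annotation release was named in the sources used here. In the table the authors deposited 4 values per gene and library. The expected counts of RSEM, deposited by the authors, were rounded to whole numbers (84.4% of values above 0 were already whole). The TPM values deposited by the authors are shares of the whole library, and the genes in the table held 38.9% to 41.6% of them. The deposited FPKM values and the authors' normalized counts, a signal divided by a library factor, were not used. Symbols turned into dates were restored for 26 genes, and 233 genes had no count.

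Counts were filtered with filterByExpr, scaled by TMM and fitted in edgeR 4.0.16 (R 4.3.3) with 1 mean per group, leaving 14 residual degrees of freedom, at a biological coefficient of variation of 11.8%. CPM are counts of the table divided by its TMM-scaled total. A gene passed at an adjusted p under 0.05 (Benjamini-Hochberg over all 6659 genes of a comparison). The SE is the log2 fold change over the root of F, and intervals are 95%. The 6 SFSN groups were compared with Control and with each other (15 pairs). The fit was tested on simulated data. Alternatives were RLE and total-count scaling, no filter, DESeq2 1.42.0, limma 3.58.1 on log2(TPM + 1) and log2(TPM + 0.1), only the 6 libraries compared, a replicate block, and libraries left out. Named besides the members were partners and regulators that passed in the same direction in all 6 groups or led their list in size, and the 3 genes of most similar profile. Jun was named as well, beside Fos and Junb. The members, lists and rules were chosen with earlier results of these data known. No replicate pair agreed within sampling noise. Promoter sequences were in hand for 4 of the 6 genes. Some items are not reported here.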

Additional observations from a re-analysis of the deposited data

Results flagged for a closer look

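The differences between SFSN groups that passed in edgeR's quasi-likelihood test (adjusted over all genes) were looked at again, because the groups' changes from the same Control libraries then differ. There were 17 of them among 75 comparisons of the 5 tested genes, while 1.67% to 28% of all genes passed, depending on the pair of groups. Values are log2 fold changes of the first group against the second.

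For Gja1 the 7 differences were -0.38 for SFSN-TC against SFSN-Adipo (adjusted p = 1.45e-05), -0.36 for SFSN-Neu against SFSN-Adipo (adjusted p = 6.13e-05), -0.31 for SFSN-EC against SFSN-Adipo (adjusted p = 0.000307), -0.27 for SFSN-Ot against SFSN-Adipo (adjusted p = 0.000212) and -0.19 for SFSN-FB against SFSN-Adipo (adjusted p = 0.0036). The others were -0.19 for SFSN-TC against SFSN-FB (adjusted p = 0.00335) and 0.17 for SFSN-FB against SFSN-Neu (adjusted p = 0.0117).

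For Gja5 all 4 were against SFSN-Neu, at 0.36 for SFSN-FB (adjusted p = 0.0158), 0.36 for SFSN-Ot (adjusted p = 0.0177), 0.33 for SFSN-TC (adjusted p = 0.0296) and 0.34 for SFSN-EC (adjusted p = 0.0392). For Gjb2 all 4 held SFSN-TC as the lower group, at -1.58 against SFSN-Adipo (adjusted p = 0.00187), -1.44 against SFSN-Neu (adjusted p = 0.00216), -1.0 against SFSN-FB (adjusted p = 0.0193), and 0.96 for SFSN-Ot against SFSN-TC (adjusted p = 0.0324). For Gjc1 the 2 were 0.25 for SFSN-TC against SFSN-FB (adjusted p = 0.0205) and 0.22 for SFSN-EC against SFSN-FB (adjusted p = 0.0479).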

How the results depend on the processing

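The calls against Control numbered 24 to 27 under the alternatives, beside 26, and 25 to 26 with single libraries left out. The calls between SFSN groups numbered 9 to 17 under the alternatives, beside 17, and 12 to 18 with single libraries left out. The 9 came with only the 6 libraries compared, and limma on log2(TPM + 1) and log2(TPM + 0.1) gave 11 each. The cause of the lower numbers was not tested. Of 47 results on single connexin genes, 46 kept their direction under every alternative and 26 also their side of the threshold. The exception in direction was Gja1 in SFSN-FB against Control, at 0.016 under total-count scaling, where the median of all genes also moved. Replicate numbers did not pair the libraries: correlations of same-numbered libraries across groups ran from -0.39 to 0.46 with a median of 0.00678, and 10 of 21 libraries correlated best with their own number. The replicate block gave 26 calls against Control and 15 between SFSN groups. Depth limits Gjb5, at 0 to 4 counts, and differences between SFSN groups in Gja4 and Gjb2.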
